A study of Homo sapiens with 8 samples.

Results

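The zinc finger genes of 19q13.4 are the protein-coding genes with a ZNF number that lie at the far end of the long arm of human chromosome 19. They were taken from GENCODE release 29 as all protein-coding genes on chromosome 19 that start at or after base 52000000 (GRCh38) and whose symbol is ZNF followed by a number and at most 1 letter. This gave 92 members of the 58721 genes counted. RNA of 2 neuroblastoma lines, cancers of the developing sympathetic nervous system kept as permanent cultures, was sequenced after enrichment for messenger RNA. CHLA-20, which lacks amplification of MYCN, was cultured in IMEM to which insulin, transferrin and selenium had been added. NGP, which carries MYCN amplification, was cultured in RPMI. Each line was kept for 6 days either with the vehicle DMSO or with an inhibitor of PRMT5, the enzyme that places symmetric dimethyl groups on arginines. The 4 groups, CHLA-20 DMSO, CHLA-20 JSK591, NGP DMSO and NGP JSK591, had 2 libraries each. JSK591 is the inhibitor's name on the samples, the treatment text writes GSK591, and its concentration is not given in the sources used here. Each line stands for a single tumour, and a difference between the lines is also a difference between their media.

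Most zinc finger proteins of this region belong to a family that grew by tandem duplication in mammals. A typical member has an array of C2H2 fingers, each holding a zinc ion and reading a few bases of DNA, and many members carry a KRAB domain in front of it. KRAB binds TRIM28, a scaffold that brings in the histone methyltransferase SETDB1 and heterochromatin proteins, and many of the family's targets are transposable elements. The gene clusters themselves are known to be covered by the same kind of chromatin over their finger exons.

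The members lie between bases 52012765 and 58481230 and fall into 3 blocks separated by more than 500000 bases. The first block, 52012765 to 53580269, holds 33 members, the second, 55476332 to 56671783, holds 16, and the third, 57191500 to 58481230, holds 43. In the translated coding sequence members had 3 to 26 C2H2 fingers, with a median of 12. The blocks differed in base composition, with a median transcript GC content of 41.2%, 58.7% and 46.1% in the order given. Of the 92 members, 52 share exonic bases with another gene and 10 share over 20% of them. How strand was handled in counting is not given in the sources used here. Reads over shared bases may thus have been left out as ambiguous or assigned to a gene of the pair. Near-identical paralogs such as ZNF587, ZNF587B, ZNF814 and ZNF417 may exchange reads.

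RefSeq start sites (GRCh38.p14) were found for 81 of the 92 members, and for 65 of them the site lay within 500 bases of the GENCODE 5′ end. The windows, 250 bases before to 50 after each start, were searched on both strands for CCGGAAG, the core letters that ETS family factors bind. It was present in 52 of 81 members (64.2%), in 34.5% of 345 other zinc finger genes and in 10.7% of 27305 promoters of all genes. It lay within 60 bases of the start in 49 of 62 matches, with overlapping matches on both strands in ZNF787 and ZNF256 counted separately. The GC box GGGCGG was present in 75.3% of members, 61.2% of the other zinc finger genes and 44.6% of all promoters, and the median number of CpG dinucleotides was 24, 21 and 14. The windows were not chosen alike in these sets. Members had 100 listed start sites, and the site nearest the GENCODE 5′ end was used for each. For the other sets the site listed earliest for each gene was used. The part of this choice in the differences between sets was not tested. The windows of 5 members are shown as examples of members lower or higher in NGP, described below. ZNF880 (chr19:52369673-52369972, plus strand), ZNF677 (chr19:53254824-53255123, minus strand) and ZNF264 (chr19:57191250-57191549, plus strand) had next to no counts in NGP, while ZNF805 (chr19:57240382-57240681, plus strand) and ZNF8 (chr19:58278705-58279004, plus strand) were higher in NGP than in CHLA-20. Capitals mark CCGGAAG or its complement CTTCCGG, and each run is the gene's own strand, 5′ to 3′.
ZNF880: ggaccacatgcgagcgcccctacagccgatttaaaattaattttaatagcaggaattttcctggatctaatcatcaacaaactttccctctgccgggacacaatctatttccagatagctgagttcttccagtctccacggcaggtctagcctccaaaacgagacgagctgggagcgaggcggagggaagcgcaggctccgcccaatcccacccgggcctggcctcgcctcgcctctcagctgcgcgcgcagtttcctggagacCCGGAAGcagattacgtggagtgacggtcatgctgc
ZNF677: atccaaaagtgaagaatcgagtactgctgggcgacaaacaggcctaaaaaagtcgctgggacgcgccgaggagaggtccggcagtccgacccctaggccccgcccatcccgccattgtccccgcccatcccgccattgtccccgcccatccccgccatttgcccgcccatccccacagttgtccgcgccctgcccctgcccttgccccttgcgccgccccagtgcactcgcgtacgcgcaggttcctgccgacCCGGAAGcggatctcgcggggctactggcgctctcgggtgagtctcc
ZNF264: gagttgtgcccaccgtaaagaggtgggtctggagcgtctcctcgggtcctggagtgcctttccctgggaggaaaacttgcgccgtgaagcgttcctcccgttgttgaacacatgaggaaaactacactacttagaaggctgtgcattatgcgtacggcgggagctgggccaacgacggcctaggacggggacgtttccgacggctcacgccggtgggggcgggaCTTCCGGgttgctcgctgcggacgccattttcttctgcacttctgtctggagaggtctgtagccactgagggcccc
ZNF805: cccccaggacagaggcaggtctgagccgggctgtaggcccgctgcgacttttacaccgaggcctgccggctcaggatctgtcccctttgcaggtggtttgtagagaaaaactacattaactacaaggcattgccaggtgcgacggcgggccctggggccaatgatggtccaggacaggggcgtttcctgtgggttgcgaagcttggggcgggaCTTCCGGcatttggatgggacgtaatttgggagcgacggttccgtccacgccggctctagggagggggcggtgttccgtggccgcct
ZNF8: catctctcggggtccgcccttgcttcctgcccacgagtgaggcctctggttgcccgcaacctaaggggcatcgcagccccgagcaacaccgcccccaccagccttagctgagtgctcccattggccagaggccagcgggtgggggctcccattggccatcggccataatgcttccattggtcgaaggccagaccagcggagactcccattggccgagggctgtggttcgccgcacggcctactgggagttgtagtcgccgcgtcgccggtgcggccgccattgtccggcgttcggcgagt

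In ZNF880 and ZNF677 the match begins 14 and 3 bases after the start, and in ZNF264 and ZNF805 it begins 26 and 37 bases before it. ZNF8 has no match in its window. Of the 10 members near absent in NGP, 8 had a window and 7 of these held the letters, as did 45 of the 73 other members with a window (61.6%). The median number of CpG dinucleotides was 24 in both sets. A match describes the letters and does not show binding.

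Libraries held 33188542 to 34914902 counts assigned to genes, and members took 0.0515% to 0.0866% of these. A gene with no count could still have had up to 3, which is at most 0.0899 CPM (counts scaled to the library's TMM-adjusted total) in these libraries, and such limits cover counting error only. Nothing says that the 2 libraries of a group came from separate cultures, so p-values measure the spread between these libraries, which may be technical. Among markers of the lines' cell type, PHOX2A, HAND2, GATA3 and ISL1 stood above 60 CPM in every group, whereas TH stood at 1381 CPM in CHLA-20 DMSO and 0.762 in NGP DMSO, and CHGA had next to no counts in either line. Blood markers did not exceed 0.12 CPM. The 7 fibroblast and Schwann markers summed to 334 to 377 CPM in CHLA-20 and to 544 to 661 in NGP, led by LUM and DCN in the former and by COL1A1 in the latter, and their part in the differences between lines was not tested.

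Members were expressed at low levels. The median member stood at 5.95 CPM in CHLA-20 DMSO, 6.48 in CHLA-20 JSK591, 2.86 in NGP DMSO and 2.95 in NGP JSK591. The summed level of all members was 842 and 844 CPM in the CHLA-20 DMSO libraries and 521 and 512 in the NGP DMSO libraries. Per kilobase of exon, the 6 highest members over all libraries all lay in the second block and had GC-rich transcripts. They were ZNF581 (15.2 CPM per kilobase), ZNF580 (11.2), ZNF787 (9.83), ZNF579 (7.90), ZNF865 (4.26) and ZNF444 (3.74), against 0.803 for the median member. ZNF581 has 4 fingers and ZNF580 has 3, the lowest number among members. ZNF581 and ZNF580 lie in overlapping positions (55635459 to 55645622 and 55635016 to 55643469) and share 23.4% and 15.1% of their exonic bases with other genes. The low-count end held ZNF534, ZNF578 and ZNF418, which had at most 11 counts in any library and were not tested, leaving 89 members.

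The first question was how the members differ between the lines without inhibitor. In NGP DMSO, 77 of 89 members were lower than in CHLA-20 DMSO and 5 were higher, with an adjusted p under 0.05 (edgeR's quasi-likelihood test, Benjamini-Hochberg over the genes tested). Of all 19395 genes tested, 38.9% were lower and 36.6% higher. The median log2 difference of the members was -1.05, against -0.02 for all genes, and it stayed between -1.05 and -0.77 under the alternatives tried. In bulk RNA, fewer cells with a transcript and less of it per cell cannot be told apart. Of the 77, 47 were lower by a log2 difference of at least 1 and 21 by at least 3. The 7 members that did not pass were ZNF432, ZNF766, ZNF579, ZNF581, ZNF548, ZNF587B and ZNF417. With the trend in transcript GC content removed, the counts were 75 lower and 9 higher, with ZNF628 and ZNF787 turning from lower (-0.28 and -0.22) to higher (0.35 and 0.41) and ZNF580 from -0.40 to 0.05.

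**Figure D1:**
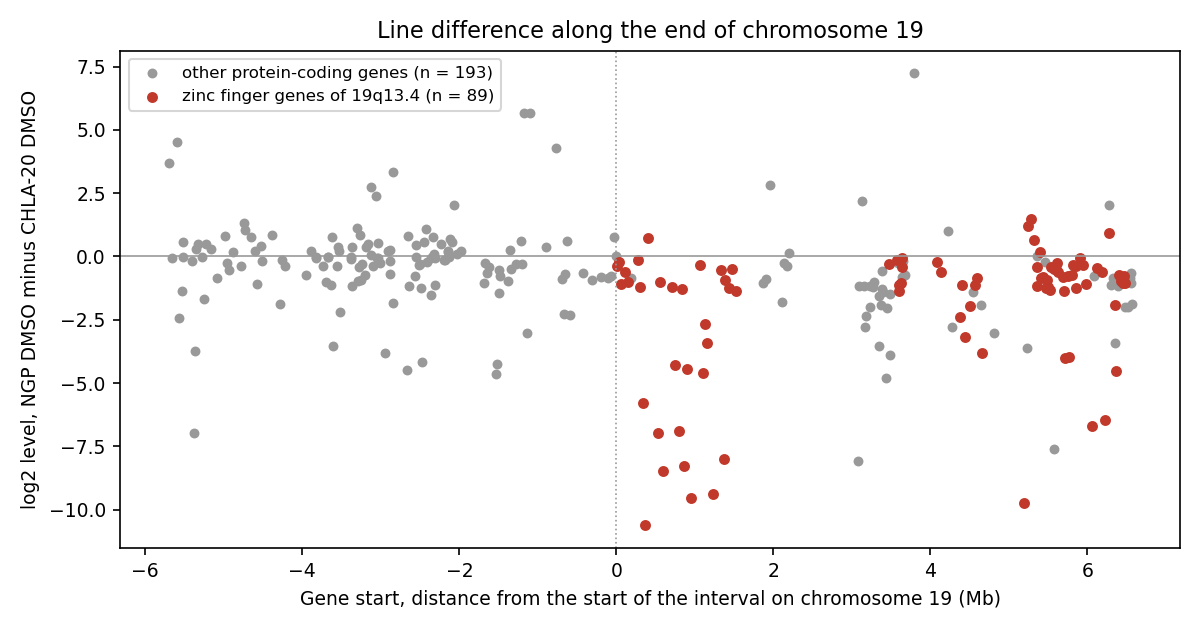
Fitted log2 difference between NGP DMSO and CHLA-20 DMSO (y) against the start of each tested protein-coding gene, as distance in megabases from the start of the interval (x), with the 89 tested members in red and other genes in grey. Most red points lie below 0, grey points to the right of the dotted line do so too, and the lowest values belong to genes with 0 or few counts in NGP, where the fitted value depends on the count added before taking logs.

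The lower level in NGP was shared by other genes of the same stretch. Of 54 other protein-coding genes tested from the same start, 44 were lower and 5 higher, with a median of -1.17. With the GC trend removed, 39 of these were lower and 6 higher, with a median of -0.84. Zinc finger genes elsewhere on chromosome 19 were split, with 54 lower and 56 higher of 143 and a median of 0.01. On other chromosomes 86 zinc finger genes were lower and 110 higher of 241, with a median of 0.10. Of the 718 other protein-coding genes tested on chromosome 19 before that start, zinc finger genes with a ZNF number left out, 389 were lower and 191 higher, with a median of -0.31 (269 lower and 327 higher, with a median of 0.07, with the GC trend removed). Low levels in NGP were thus not limited to the end of the chromosome. In windows of 2 Mb over all protein-coding genes, the median was -1.12 from 20 to 22 Mb (11 of 14 genes lower) and -1.67 from 22 to 24 Mb (5 of 8), and -1.20 and -1.75 with the GC trend removed. From 4 to 6 Mb it was -0.67 (32 of 43) and from 16 to 18 Mb -0.65 (37 of 40), which became -0.23 and -0.45. Nearer to the members, the median in windows of 1 Mb lay between -0.11 and 0.25 from 44 to 50 Mb. It was -0.49 from 50 to 51 Mb (0.07 with the GC trend removed), -0.73 from 51 to 52 Mb and -1.21 from 52 to 53 Mb, where the members begin. From there to the end of the chromosome the windows had medians of -0.74 to -1.67, except from 54 to 55 Mb, where 4 genes were tested and the median was -0.31 (0.03 with the GC trend removed). Outside that exception, the medians with the GC trend removed ran from -0.69 to -1.67. By block, 28 of 31, 14 of 16 and 35 of 42 tested members were lower, with medians of -1.28, -1.08 and -0.81. With the GC trend removed, 29, 11 and 35 were lower and 1, 4 and 4 higher, with medians of -1.35, -0.61 and -0.68.

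Some members were near absent in NGP. Of 86 members with a mean of at least 1 CPM in CHLA-20 DMSO, 10 (11.6%) had at most 3 counts in both NGP DMSO libraries together, against 1.97% of the 14055 genes at that level. The same held for 1 of 42 other protein-coding genes of the interval, for 2 of 127 zinc finger genes elsewhere on chromosome 19 and for 4 of 226 on other chromosomes. In the opposite direction, none of the 63 members at 1 CPM or more in NGP DMSO was near absent in CHLA-20, against 1.22% of 13767 genes. Among the 10, 8 lay in the first block, where 29 members reached 1 CPM, 2 in the third and none in the second.

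ZNF264 (ENSG00000083844.10, chromosome 19, 57191500 to 57222846) shares no exonic base with another gene. It stood at 16.1 and 15.7 CPM in the CHLA-20 DMSO libraries, and its 2 NGP DMSO libraries together held 1 count, a ratio of 1064 (95% interval 191 to 42063, counting error only). ZNF677 (ENSG00000197928.10, 53235381 to 53254898), a KRAB zinc finger gene, stood at 12.6 and 12.1 CPM in CHLA-20 DMSO against 1 count in NGP DMSO, a ratio of 825 (148 to 32633). The groups lay far apart in both genes. ZNF880 (ENSG00000221923.8, 52369917 to 52385795) stood at 6.07 and 5.51 CPM in CHLA-20 DMSO and had no count in any of the 4 NGP libraries, at least 129-fold lower with the 0 set to 3 counts over the group. ZNF816 stood at 2.87 and 2.61 CPM and was at least 61.1-fold lower in NGP DMSO. ZNF320 stood at 1.15 and 1.10 CPM and was at least 25.1-fold lower. These 3 were the members without a single count in NGP, though 78.5% of the exonic bases of ZNF320 also belong to another gene.

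The other near absent members had 1 to 3 counts in NGP DMSO. ZNF525 stood at 4.65 and 4.98 CPM in CHLA-20 DMSO, 322 times its NGP level (57.4 to 12755). ZNF808, which represses transposable elements and is needed for pancreas development, stood at 2.63 and 1.99 CPM, a ratio of 155 (27.3 to 6143). ZNF135, ZNF610 and ZNF888 stood at means of 3.48, 2.68 and 1.07 CPM, with ratios of 116, 59.8 and 23.8. ZNF83 was the most abundant of the strongly lower members, at 30.2 and 25.9 CPM in CHLA-20 DMSO against 0.0596 and 0.0899 in NGP DMSO, a log2 difference of -8.48 ± 0.20 (estimate ± SE). ZNF28, at 7.37 and 7.76 CPM against 0 and 0.120, gave -6.90 ± 0.32. Farther along, ZNF544 stood at 12.6 and 12.03 CPM against 0.119 and 0.150 (-6.48 ± 0.22), and ZNF586 at 11.98 and 11.3 against 0.715 and 0.749 (-3.99 ± 0.17). ZNF28, ZNF586, ZNF135, ZNF610 and ZNF888 were chosen after their values were seen. In the treated NGP libraries, 9 of the 10 near absent members had no count and ZNF677 had 1.

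**Figure D2:**
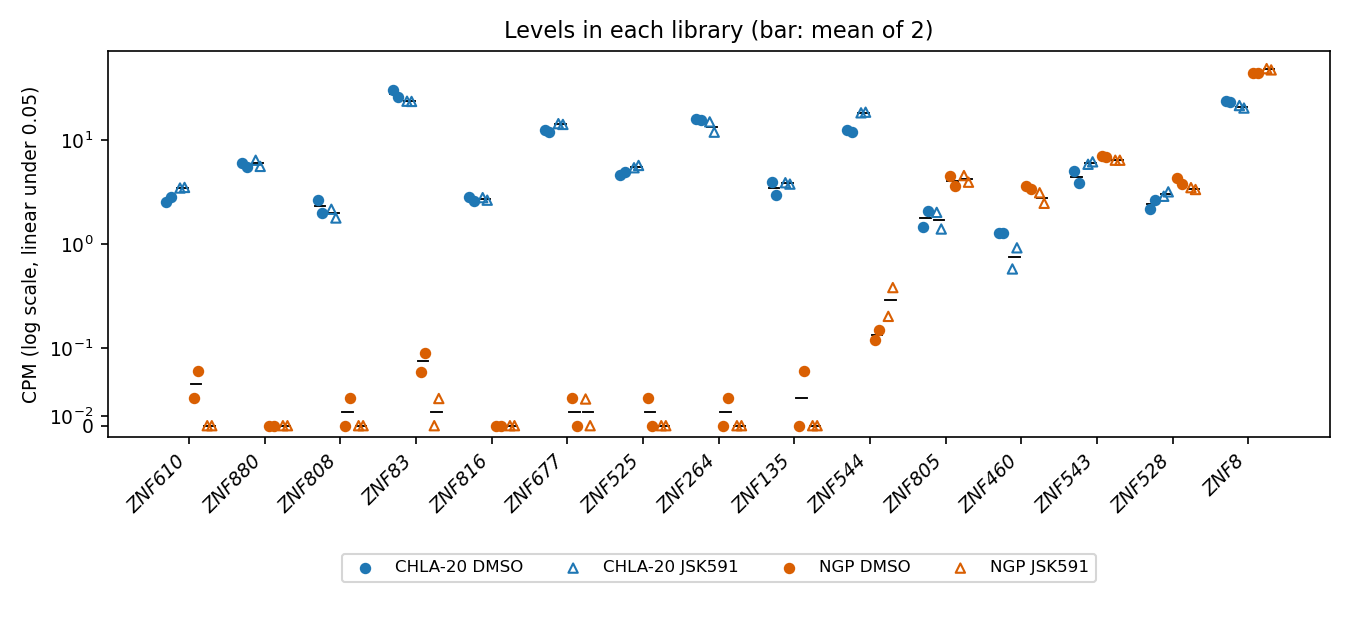
Level of 15 members in each of the 8 libraries (CPM, logarithmic above 0.05 and linear below), with filled circles for DMSO, open triangles for JSK591 and a bar at the mean of each group. The first 10 genes from the left stand above 1 CPM in CHLA-20 and below 0.5 in NGP, while ZNF805, ZNF460, ZNF543, ZNF528 and ZNF8 are higher in NGP.

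Only 5 members were higher in NGP DMSO, and 3 of them are the next members after ZNF264, with AURKC, which is no member and was lower in NGP (-3.62), between ZNF264 and the first of them. ZNF805 (57240685 to 57255135) stood at 1.45 and 2.10 CPM in CHLA-20 DMSO and 4.50 and 3.66 in NGP DMSO, a log2 difference of 1.20 ± 0.19. ZNF460 (57280051 to 57293569) stood at 1.27 in both CHLA-20 DMSO libraries and at 3.64 and 3.42 in NGP DMSO (1.47 ± 0.20). ZNF543 (57320509 to 57330776) stood at 5.03 and 3.85 against 7.09 and 6.89 CPM (0.65 ± 0.13). In none of these 3 did libraries of the DMSO groups overlap. ZNF8 (58278951 to 58302805) had the highest level of any member in NGP DMSO, 44.4 and 43.8 CPM, against 23.6 and 23.4 in CHLA-20 DMSO (0.91 ± 0.06, edgeR adjusted p = 6.61e-22), and is the next member after ZNF544, which was among the lowest there. ZNF528, in the first block, stood at 2.16 and 2.67 against 4.35 and 3.75 CPM (0.75 ± 0.16). All 5 stayed higher under each alternative tried.

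The second question was how the members respond to PRMT5 inhibition in CHLA-20. With JSK591, 20 of 89 members were higher and 11 lower (edgeR, adjusted p under 0.05), against 16.9% higher and 22.4% lower of all genes tested. The median log2 change was 0.09, against -0.02 for all genes, and it was above 0 under each alternative (0.021 over the 38 tested members that share no exonic base). With DESeq2 the counts were 12 higher and 4 lower. Zinc finger genes elsewhere on chromosome 19 had 49 higher and 11 lower of 143, with a median of 0.17, and those on other chromosomes 72 and 45 of 241, with a median of 0.06. Most changes were small, with 2 members higher by a log2 change of at least 1 and none lower by as much.

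ZNF587B (ENSG00000269343.6, 57819741 to 57846238), a close relative of ZNF587, rose the most in CHLA-20, from 2.07 and 1.78 CPM to 4.50 and 4.34, a log2 change of 1.20 ± 0.17 (edgeR adjusted p = 2.56e-08). ZNF154 (57697367 to 57709194), a locus used as a DNA methylation marker in tumours, rose from 0.621 and 0.711 CPM to 1.44 and 1.61 (1.19 ± 0.31), a call lost with DESeq2. ZNF671, its neighbour, rose from 3.05 and 2.84 CPM to 5.28 and 5.35 (0.85 ± 0.16). ZNF551 rose from 9.23 and 8.33 CPM to 16.0 and 15.5 (0.84 ± 0.09). ZNF814, another relative of ZNF587, rose from 4.79 and 4.68 CPM to 7.94 and 8.03 (0.75 ± 0.12). In these 5 genes both treated libraries lay above both DMSO libraries. ZNF544 rose from 12.6 and 12.03 CPM to 18.3 and 18.6 (0.58 ± 0.09), and ZNF471 from 5.98 and 5.84 to 8.63 and 9.10 (0.58 ± 0.11). ZNF320 rose by 0.66 ± 0.27, but this was lost in 8 of the 17 alternatives, among them DESeq2, the replicate block and the absence of either CHLA-20 DMSO library.

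Members that fell in CHLA-20 included 5 from the GC-rich second block. ZNF581 fell from 30.7 and 31.6 CPM to 21.3 and 21.2, by 0.55 ± 0.06 on the log2 scale (edgeR adjusted p = 1.02e-10). ZNF579 (55576770 to 55580845) fell from 28.998 and 32.1 CPM to 23.8 in both libraries (-0.36 ± 0.06). ZNF865 fell from 23.3 and 25.1 CPM to 19.7 and 18.6 (-0.34 ± 0.07), and ZNF787 from 40.1 and 44.03 to 36.2 and 36.0 (-0.22 ± 0.06). With the GC trend removed, ZNF865 no longer passed and ZNF787 gave 0.03, whereas ZNF579 and ZNF581 still passed. The call of ZNF787 was also lost without CHLA-20 DMSO replicate 2. ZNF460 had the largest decrease, from 1.27 CPM in both libraries to 0.577 and 0.922 (-0.77 ± 0.28), but the call was lost with DESeq2 and without CHLA-20 DMSO replicate 1, DMSO replicate 2 or JSK591 replicate 1. ZNF83 fell from 30.2 and 25.9 CPM to 23.7 and 23.6 (-0.25 ± 0.07), a call lost with DESeq2 and without CHLA-20 DMSO replicate 1. ZNF468, ZNF841 and ZNF264 fell by 0.31, 0.30 and 0.24, each call being lost with DESeq2, with no filter on low counts and without CHLA-20 JSK591 replicate 2 or DMSO replicate 1.

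The same treatment was compared with DMSO in NGP. With JSK591, 15 of 89 were higher and 7 lower, against 16.8% higher and 19.4% lower of all genes tested. Their median log2 change was 0.028 (0.059 over 78 members with counts above the floor, and -0.036 over members that share no exonic base), against 0.00 for all genes. With DESeq2 there were 9 higher and 5 lower, and without NGP DMSO replicate 2, NGP JSK591 replicate 1 or NGP JSK591 replicate 2 there were 9, 9 and 10 higher. ZNF587B again rose the most, from 1.40 and 1.68 CPM to 3.18 and 3.23, a log2 change of 1.06 ± 0.19 (edgeR adjusted p = 5.48e-06). ZNF667 (56439325 to 56478065), a KRAB zinc finger gene, rose from 0.894 and 0.839 CPM to 1.33 and 1.62 (0.76 ± 0.25), and ZNF552 from 1.43 and 1.29 to 2.11 and 2.41 (0.73 ± 0.22). Both calls were lost without NGP DMSO replicate 2 or NGP JSK591 replicate 2, and that of ZNF552 also with DESeq2. ZNF606 (57977053 to 58003349) rose from 4.38 and 4.35 CPM to 6.61 and 7.03 (0.64 ± 0.12), and ZNF470 from 2.65 and 2.79 to 4.04 and 4.29 (0.61 ± 0.15). Treated and untreated libraries did not overlap in any of these 5 genes. ZNF701 rose by 0.59 ± 0.24 and ZNF432 by 0.57 ± 0.15. The call of ZNF701 was lost in most alternatives, among them the absence of any single NGP library, and that of ZNF432 without NGP DMSO replicate 2 or NGP JSK591 replicate 1.

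Decreases in NGP were all under a log2 change of 0.5. ZNF581 fell from 31.7 and 28.6 CPM to 22.9 in both libraries (-0.40 ± 0.06), ZNF628 from 10.1 and 10.9 to 8.46 and 7.91 (-0.36 ± 0.10) and ZNF579 from 27.1 and 28.7 to 22.6 in both (-0.30 ± 0.06). ZNF329 (-0.35 ± 0.11) and ZNF444 (-0.28 ± 0.07), a SCAN domain zinc finger gene, lost their calls without NGP JSK591 replicate 2, and ZNF329 also with DESeq2. ZNF548 (-0.27 ± 0.09) lost its call with DESeq2, with no filter on low counts and without NGP DMSO replicate 1 or NGP JSK591 replicate 2. ZNF787 fell from 35.3 and 36.7 CPM to 28.8 and 31.5 (-0.26 ± 0.06). Of the 7 decreases, 5 were in members with a transcript GC content of at least 55%.

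**Figure D3:**
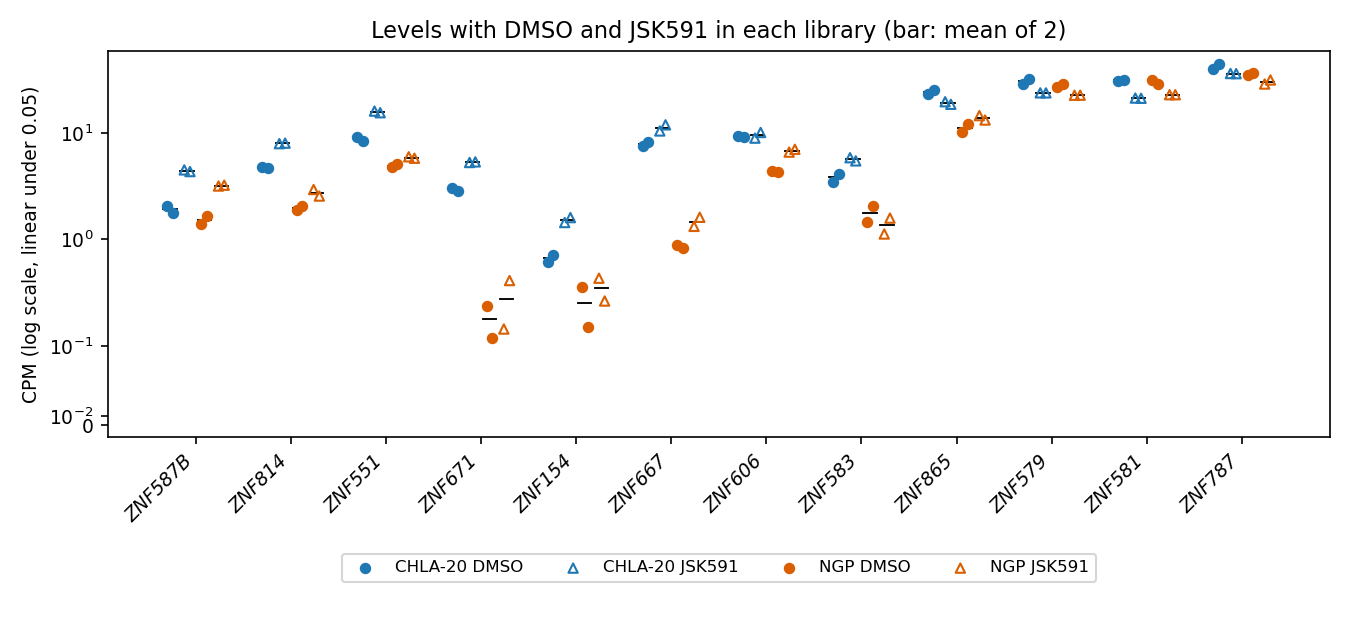
Level of 12 members with DMSO (filled circles) and JSK591 (open triangles) in each library of CHLA-20 (blue) and NGP (orange), in CPM on an axis that is logarithmic above 0.05, with a bar at the mean of each group. ZNF587B, ZNF814 and ZNF667 are higher with JSK591 in both lines, ZNF579, ZNF581 and ZNF787 are lower in both, and ZNF865 moves in opposite directions.

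Both lines shared some responses. ZNF587B, ZNF667, ZNF814, ZNF417, ZNF776 and ZNF616 rose in both, 6 of 89 members against 5.72% of all genes tested. Among these, the paralogs ZNF587B, ZNF814 and ZNF417 may exchange reads. ZNF417, which with ZNF587 is known to repress HERVK retroviral sequences, rose from 5.09 and 5.60 CPM to 6.46 and 8.42 in CHLA-20 (0.48 ± 0.12) and from 5.01 and 5.24 to 7.33 and 6.67 in NGP (0.45 ± 0.12). ZNF776 rose by 0.31 ± 0.08 and 0.37 ± 0.10, and ZNF616 by 0.27 ± 0.08 and 0.33 ± 0.09. ZNF814 rose by 0.47 ± 0.18 in NGP, a call lost with DESeq2, with no filter on low counts and without NGP DMSO replicate 1, DMSO replicate 2 or JSK591 replicate 1. The call of ZNF417 was lost without JSK591 replicate 2 in CHLA-20, and with DESeq2 or without JSK591 replicate 1 in NGP. That of ZNF616 was lost with DESeq2 in CHLA-20 and without JSK591 replicate 1 in NGP, and that of ZNF776 without JSK591 replicate 2 in CHLA-20. ZNF579, ZNF581 and ZNF787 fell in both lines, 3 of 89 members against 8.98% of all genes. In total 10 members passed in both lines, 21 in CHLA-20 alone (23.6%, against 20.4% of all genes), 12 in NGP alone (13.5%, against 17.2%) and 46 in neither.

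**Figure D4:**
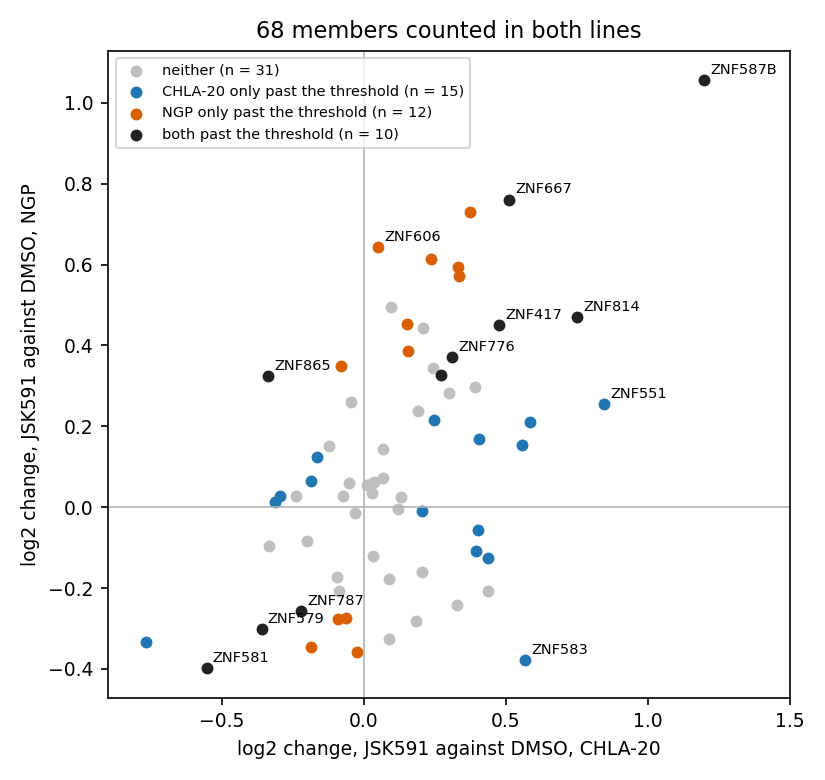
Log2 change with JSK591 in CHLA-20 (x) and in NGP (y) for the 68 members with over 30 counts in each group, coloured by the line in which edgeR's adjusted p was under 0.05. ZNF587B lies at the upper right, ZNF581 at the lower left, and ZNF865 and ZNF583 in the quadrants where the lines differ in direction.

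The difference between the 2 effects was tested directly. It passed in 12 members, 5 with a higher and 7 with a lower change in NGP than in CHLA-20, against 15.2% and 12.5% of all genes tested (with the GC trend removed, 5 and 10 members, and 2286 and 3169 of 19395 genes in place of 2950 and 2418). ZNF865 (ENSG00000261221.3, 55605405 to 55617269) fell in CHLA-20 and rose in NGP, from 10.1 and 12.1 to 14.6 and 13.2 CPM (0.32 ± 0.09), the 1 member that passed in opposite directions, against 4.3% of all genes. The difference was 0.66 ± 0.11 (edgeR adjusted p = 5.46e-06) and passed under each alternative, although with the GC trend removed neither line's own change passed. Without NGP DMSO replicate 1 or NGP JSK591 replicate 1 the change in NGP was lost as well. ZNF551 rose in CHLA-20 and stood at 4.80 and 5.06 CPM with DMSO and 5.98 and 5.79 with JSK591 in NGP (0.25 ± 0.12, not called), a difference of -0.59 ± 0.15 that also passed under each alternative. ZNF606 stood at 9.29 and 9.13 CPM with DMSO and 8.95 and 10.1 with JSK591 in CHLA-20 (0.05 ± 0.10), and its difference of 0.59 ± 0.16 was lost with DESeq2. ZNF583 rose from 3.49 and 4.15 to 5.86 and 5.47 CPM in CHLA-20 (0.57 ± 0.15) and stood at 1.46 and 2.07 against 1.13 and 1.59 in NGP (-0.38 ± 0.23, not called). Its difference of -0.95 ± 0.27 was lost with DESeq2 and without NGP DMSO replicate 2. With DESeq2, 3 members passed in all, 2 higher and 1 lower, and without CHLA-20 JSK591 replicate 2 the number lower was 3.

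A run of the third block held many of the rising members. From ZNF551 to ZNF417 (57681969 to 57916610) lie 10 members, a stretch chosen after the values were seen, so its counts are a description. In CHLA-20, 7 of the 10 rose (ZNF551, ZNF154, ZNF671, ZNF776, ZNF587B, ZNF814 and ZNF417) and none fell. In NGP 6 of the 10 rose (ZNF776, ZNF552, ZNF587B, ZNF814, ZNF587 and ZNF417) and none fell. Of all genes tested, 16.9% rose and 22.4% fell in CHLA-20, and 16.8% and 19.4% did so in NGP. The paralogs ZNF587, ZNF587B, ZNF814 and ZNF417 may exchange reads, so their changes may not be separate. Of the 32 other tested members of this block, 3 rose and 3 fell in CHLA-20, and 3 rose and 2 fell in NGP. ZNF587 (57849857 to 57865112), which overlaps ZNF814 and shares 35.03% of its exonic bases, stood at 18.9 and 18.01 CPM with DMSO and 17.4 and 17.6 with JSK591 in CHLA-20 (-0.08 ± 0.08, not called). In NGP it rose from 14.1 and 14.7 to 19.5 and 17.1 CPM (0.35 ± 0.08). The difference of 0.43 ± 0.11 passed with DESeq2 and was lost without NGP JSK591 replicate 1. The blocks, in order, had 31, 16 and 42 tested members. Of these, 6, 4 and 10 rose and 3, 5 and 3 fell in CHLA-20, and 3, 3 and 9 rose and 0, 5 and 2 fell in NGP.

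**Figure D5:**
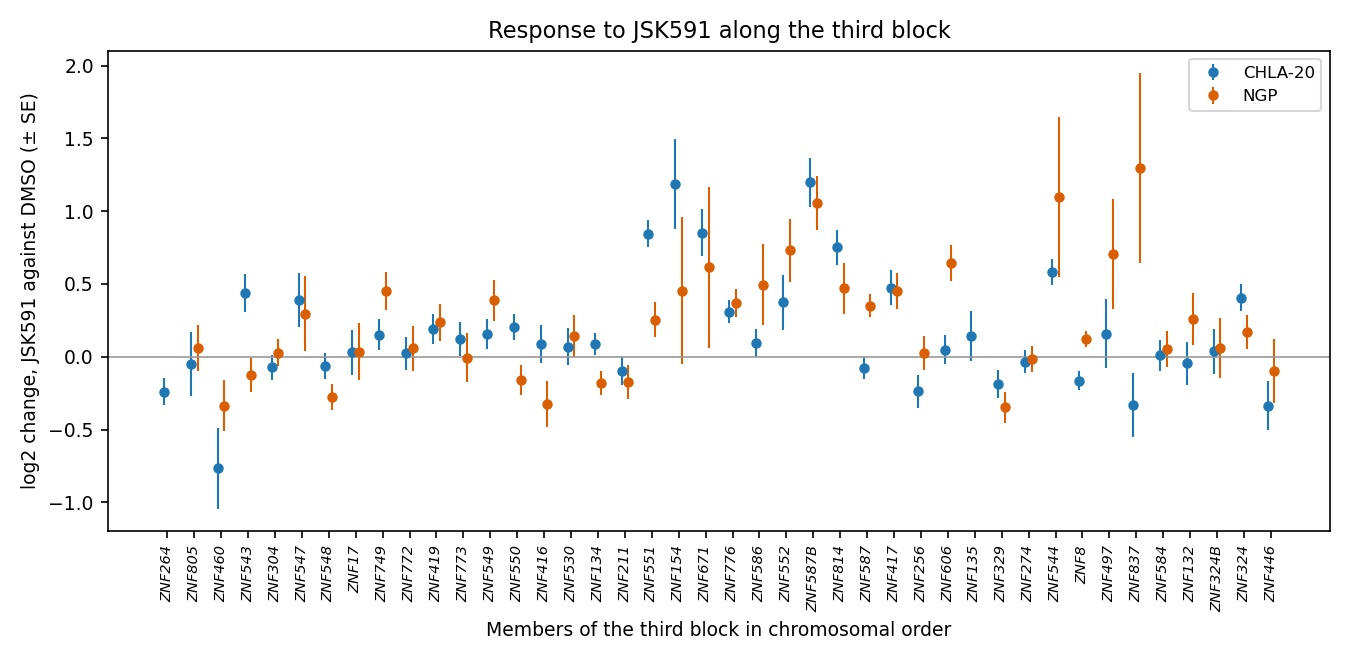
Log2 change with JSK591 against DMSO (point, with bars of 1 SE) for the tested members of the third block in chromosomal order, CHLA-20 in blue and NGP in orange. Points from ZNF551 to ZNF417 lie mostly above 0 in both lines, ZNF460 has the lowest value in CHLA-20, and a line's value is left out where a group held 5 counts or fewer.

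Base composition and expression level moved with these responses. Over the 68 members with more than 30 counts in each group, Spearman's rho between transcript GC content and the log2 change was -0.43 in CHLA-20 and -0.25 in NGP, given as a description across genes that share libraries. With the GC trend of all genes removed, rho was -0.24 and -0.35. For the level per kilobase, rho was -0.44 in CHLA-20 and -0.29 in NGP, and -0.35 in both with the GC trend removed. Of the 15 members with a GC content of at least 55%, a split chosen after seeing the data, 1 rose and 5 fell in each line (2 and 2 in CHLA-20, 0 and 5 in NGP with the GC trend removed). Of the 74 tested members below it, 19 rose and 6 fell in CHLA-20, and 14 rose and 2 fell in NGP. The number of fingers had a rho of 0.19 and 0.23 with the change in CHLA-20 and NGP. The part of GC content and of level in the responses was not tested beyond this.

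The partners through which KRAB zinc finger proteins act were expressed in both lines. TRIM28, the scaffold that KRAB binds, is also among the 54 other genes tested in the members' interval, most of which were lower in NGP. It stood at 448 CPM in CHLA-20 DMSO and 248 in NGP DMSO, and its change with JSK591 of -0.05 and -0.04 was not called in either line. SETDB1, the methyltransferase it recruits, fell in both, by 0.23 in CHLA-20 and by 0.22 in NGP. Of the 20 tested genes of the co-repressor list, 6 rose and 4 fell in CHLA-20, and 5 rose and 5 fell in NGP, where 16.9% and 22.4% of all genes did so in CHLA-20 and 16.8% and 19.4% in NGP. Of the HUSH silencing complex, the subunits MPHOSPH8 and PPHLN1 rose in both lines, by 0.46 and 0.24 and by 0.39 and 0.19, whereas FAM208A, the third subunit, was not called in CHLA-20 (-0.016) and rose by 0.29 in NGP. MORC2, which acts with HUSH, rose by 0.17 and 0.25. ATF7IP, which stabilises SETDB1, fell by 0.11 in CHLA-20 and by 0.54 in NGP. SUMO attached to TRIM28 is known to help it bind SETDB1, and SUMO2 and the SUMO ligase PIAS1 fell in both lines, PIAS1 by 0.26 and 0.36. ZNF274, a member known to recruit SETDB1 to the 3′ ends of zinc finger genes, stood at 16.9 and 16.6 CPM with DMSO and 15.5 and 17.2 with JSK591 in CHLA-20, and at 11.5 and 10.6 against 10.9 and 10.97 in NGP, with neither change called.

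In the list of heterochromatin and DNA methylation genes, 7 of 21 tested rose (33.3%) and 5 fell (23.8%) in CHLA-20, and 6 rose (28.6%) and 5 fell (23.8%) in NGP, beside the same shares of all genes as given for the co-repressors. UHRF1, which guides DNA methylation to newly copied strands, rose by 0.50 and 0.31, and HELLS, a chromatin remodeller needed for DNA methylation, by 0.39 and 0.22. DNMT1, the maintenance methyltransferase, was called in neither line. The 5-methylcytosine oxidase TET1 fell in both by 0.32 and 0.35, and TET2 fell in NGP by 0.71, while TET3 rose in both by 0.37 and 0.19. DNMT3B fell in CHLA-20 by 0.44. H3F3B, a gene of the histone variant that marks silent repeats as well as active genes, fell by 0.30 and 0.48, while H3F3A, the other gene of that variant, rose by 0.18 and 0.19. ATRX, which with ZNF274 keeps finger exons in heterochromatin, rose by 0.11 in CHLA-20 and fell by 0.42 in NGP.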

How the data were processed

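Messenger RNA was counted in 8 libraries of CHLA-20 and NGP, 2 in each of 4 groups. The authors deposited unnormalised read counts per gene in a separate file for each library. STAR, HTSeq and the build GRCh38 (hg38) are named in the submitters' processing notes. DESeq2 is also named there, and versions, annotation and strand setting are not given in the sources used here. All 58721 gene identifiers were found in GENCODE release 29. Rows that name no gene were left out: 5.15% to 6.86% of counted reads fell outside genes, 6.77% to 7.18% were ambiguous and 19.2% to 22.0% had several alignments, so reads that fit several paralogs equally well are not in the gene counts.

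From the deposited counts, edgeR 4.0.16 in R 4.3.3 kept 19395 genes by filterByExpr over the 4 groups, scaled libraries by TMM and fitted 1 quasi-likelihood model with 4 group means and no block (4 residual degrees of freedom, biological coefficient of variation 2.76%). It gave the JSK591 effect of each line, the NGP effect minus the CHLA-20 effect, and NGP against CHLA-20 without inhibitor. Adjustment was by Benjamini-Hochberg across every tested gene at a threshold of 0.05. The model was tried on simulated counts with changes placed in CHLA-20 JSK591 alone and the same dispersion for all genes. The other contrasts were not tried in this way. CPM uses the TMM-adjusted library totals. Deviations of same-numbered libraries were close to uncorrelated between groups (-0.027 to 0.012). This check weighed all tested genes alike, also those with few counts, so it cannot show that no culture or day was shared. Replicates differed by more than sampling noise (chi-square per degree of freedom 2.05 to 3.11).

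Named members were, per contrast, the 8 largest increases and decreases that passed, with separated libraries and 1 CPM in a group, those called in both lines, the 6 highest per kilobase, and those with no count in 1 line. Members, lists and rules were chosen with earlier results of these data known. Alternatives were DESeq2 1.42.0, its size factors in edgeR, total count scaling, other filters on low counts, the replicate block, fits to 4 libraries, members without exon overlap and leaving out each library. Removal of the trend in the GC content of the longest transcript and floors for members at 0 were added after seeing the data.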

Additional observations from a re-analysis of the deposited data

Results flagged for a closer look

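Each of the 12 members below had a JSK591 effect that differed between the lines by the test of the difference itself (edgeR, Benjamini-Hochberg adjusted p under 0.05), given as NGP minus CHLA-20 on the log2 scale. The difference was -0.95 in ZNF583, -0.59 in ZNF551, -0.56 in ZNF543, -0.46 in ZNF614, -0.40 in ZNF480, -0.36 in ZNF550 and -0.33 in ZNF628. It was 0.66 in ZNF865, 0.59 in ZNF606, 0.43 in ZNF587, 0.29 in ZNF8 and 0.25 in ZNF580. The differences of ZNF865 and ZNF551 passed under all 16 alternatives, and those of the other 10 were lost under at least 1 of them. ZNF614 rose in CHLA-20 from 11.5 and 12.7 to 15.8 and 16.2 CPM and stood at 8.47 and 10.2 with DMSO and 9.41 and 8.50 with JSK591 in NGP. Its difference was lost with DESeq2 and without NGP DMSO replicate 2. ZNF480 rose in CHLA-20 from 14.9 and 12.6 to 18.9 and 21.6 CPM and stood at 6.11 and 5.93 against 6.18 and 7.23 in NGP. ZNF543 rose in CHLA-20 from 5.03 and 3.85 to 5.86 and 6.18 CPM and stood at 7.09 and 6.89 with DMSO and at 6.41 in both treated libraries of NGP. Its difference was lost with DESeq2 and without CHLA-20 DMSO replicate 2 or JSK591 replicate 2. ZNF8 fell by 0.17 in CHLA-20 and gave 0.12 in NGP without passing.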

How the results depend on the processing

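With DESeq2, members higher and lower were 12 and 4 in CHLA-20, 2 and 1 for the difference, and 9 were higher in NGP. With no filter on low counts 6 were lower in CHLA-20 and 4 for the difference. Among members that share no exonic base, 38 of them tested, 7 were higher and 5 lower in CHLA-20 (median 0.021), 2 and 4 in NGP (-0.036), 1 and 2 for the difference (-0.11), and 3 and 33 between lines. With the GC trend removed, the median was 0.16 in CHLA-20 and -0.88 between lines, with 9 higher, and ZNF787 in CHLA-20 (0.030) and ZNF628 (0.35), ZNF580 (0.053) and ZNF787 (0.41) between lines turned sign. The median in NGP was 0.053 after scaling to total counts, 0.065 in the fit to 4 libraries and 0.059 with members at 0 counts set to the floor. Requiring 10 counts of each library gave medians of 0.074 in NGP, 0.027 for the difference and -0.77 between lines. Leaving out 1 library gave 15 to 24 higher and 6 to 11 lower in CHLA-20 (median 0.08 to 0.12), 9 to 16 and 4 to 10 in NGP (0.00 to 0.10), 3 to 5 and 3 to 8 for the difference (-0.12 to -0.039), and 5 to 6 and 72 to 78 between lines (-1.05 to -0.92). The lowest 6 in CHLA-20 came without either CHLA-20 DMSO library, the 4 in NGP without NGP JSK591 replicate 2, and the 3 higher for the difference without NGP DMSO replicate 2 or NGP JSK591 replicate 1. Of the calls, 12 of 31 in CHLA-20, 8 of 22 in NGP, 2 of 12 for the difference and 69 of 82 between lines were kept under every alternative that tested the member. An alternative that left a member out did not count against its call. Requiring 10 counts of each library left out members such as ZNF880, which had no count in NGP. Unless named, the cause of a change was not tested. GC content from a genome was not run, for want of a genome in the sources used here, and low counts limit members near 1 CPM.

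Blocking all libraries by replicate number gave 19 members higher and 11 lower in CHLA-20, 15 and 7 in NGP, 5 and 7 for the difference and 5 and 77 between lines. With the block within each line they were 19 and 11, 16 and 7, 5 and 6, and 5 and 73, the last with a median of -0.95.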
